A study of Mus musculus with 22 samples.

Results

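The 8 meiotic recombination genes Spo11, Prdm9, Mei4, Rec114, Dmc1, Msh4, Msh5 and Mlh3 were followed through the phosphorylated histone γH2AX and the histone variant H3.3 on their own DNA in mouse testis. Their windows were chosen by position alone. Each 50 kb window of the genome that overlaps one of these genes in RefSeq positions of mouse build mm10 (GRCm38) was taken, which gave 22 of 54520 windows. Mei4 fills 8 of them, Rec114 fills 4, Prdm9, Dmc1, Msh4 and Mlh3 fill 2 each, and Spo11 and Msh5 lie in 1 each. The window that holds a gene's transcription start, called its start window, stands for the gene in summaries. The windows of 1 gene are neighbours and are not replicates of each other.

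The study immunoprecipitated chromatin from whole testis of mice that carry Robertsonian translocations, each a fusion of 2 acrocentric chromosomes by their centromeric ends, and sequenced the recovered DNA. For γH2AX, taken at 4 weeks of age, 3 groups had 3 libraries each. The group 1Rb_M was heterozygous for 1 translocation and came from CBy.RBF-Rb(8.12)5Bnr/J mated with B6.SPRET7MOLF12, 1Rb_P was heterozygous for 1 translocation and came from C57BL/6J mated with CBy.RBF-Rb(8.12)5Bnr/J, and 3Rb was heterozygous for 3 translocations and came from B6.SPRET7MOLF12 mated with RBF/Dnj. A single control library of C57BL/6J (B6) was made with an antibody of the same clone labelled with another supplier. For H3.3, taken at 6 weeks, 3 libraries each came from 1Rb (the 1Rb_M cross), 3Rb and the control strain B6.SPRET7MOLF12 (Cg). Input DNA, sequenced without immunoprecipitation, came from B6, from Cg and from a sample titled 1Rb_M whose strain label names the 1Rb_P cross. The B6 and 1Rb_M inputs were taken at 4 weeks and the Cg input at 6 weeks. The input pool used below thus mixes both ages. The crosses differ in their parental strains as well as in the number of translocations, so the effects of strain and translocation cannot be told apart. The labels do not say that replicates came from separate animals, so p-values measure the spread between these libraries, which may be technical.

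Meiotic recombination begins when cells cut their own DNA in early prophase and repair the breaks from the homologous chromosome, and some repairs become crossovers that hold homologues together until they separate. H2AX is phosphorylated to γH2AX around DNA breaks, on chromosomes that have not paired, and over the X and Y chromosomes in the sex body of male prophase cells. H3.3 is a histone H3 variant that is deposited outside replication, at active genes and also on the sex chromosomes in meiosis. Both marks were read here on the DNA of the recombination genes themselves, which is neither their expression nor the action of their proteins.

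The 3 genes on which the comparisons turn are Msh5 and Dmc1, whose start windows held less γH2AX in 3Rb, and Mei4, whose start window held the most γH2AX of the 8. The 250 bases before their RefSeq transcription starts (GRCm38.p6) are printed here 5′ to 3′ on the strand of the gene, with CG dinucleotides, the sites of DNA methylation in promoters, in capitals. They lie at chr17:35046623-35046872 (minus strand), chr15:79605110-79605359 (minus strand) and chr9:81863420-81863669 (plus strand).
Msh5: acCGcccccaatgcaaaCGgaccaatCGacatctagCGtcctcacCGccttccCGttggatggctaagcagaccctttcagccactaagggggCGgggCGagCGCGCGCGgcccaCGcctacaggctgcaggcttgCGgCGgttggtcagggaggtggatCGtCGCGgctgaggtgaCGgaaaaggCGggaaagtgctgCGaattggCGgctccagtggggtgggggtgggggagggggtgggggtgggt
Dmc1: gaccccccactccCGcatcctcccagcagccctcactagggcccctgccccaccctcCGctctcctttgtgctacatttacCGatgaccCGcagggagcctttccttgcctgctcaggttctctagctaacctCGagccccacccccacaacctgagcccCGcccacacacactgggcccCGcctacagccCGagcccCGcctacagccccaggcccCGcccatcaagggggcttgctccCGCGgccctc
Mei4: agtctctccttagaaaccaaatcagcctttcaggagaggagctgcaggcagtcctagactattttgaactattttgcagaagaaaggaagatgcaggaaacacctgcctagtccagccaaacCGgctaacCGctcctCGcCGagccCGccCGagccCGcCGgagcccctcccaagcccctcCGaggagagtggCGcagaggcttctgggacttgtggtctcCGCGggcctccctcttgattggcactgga

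The Msh5 stretch held 22 CG dinucleotides (the same on both strands), more than 85.2% of the 32851 promoter stretches of this length in the RefSeq table. Dmc1 and Mei4 held 12 each, against a median of 6 over all promoters, of which 92.1% held at least 1. Of the other members, Mlh3 held 15, Prdm9 13, Rec114 10 and Msh4 4. Promoter sequence was found for 7 of the 8 genes. The windows are far longer than a promoter, so no value below belongs to these bases alone.

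Counts per library summed to between 11876426 (the B6 input) and 128348440 (H3.3 Cg replicate 1). The X chromosome, which carries γH2AX in the sex body, took 12.3% to 18.9% of γH2AX counts in carriers and 20.6% in B6, against 3.16% to 3.17% in inputs. 1Rb_M replicates 1 and 2 were low, at 12.3%, while 1Rb_M replicate 3 stood at 18.9%; comparisons with 1Rb_M were therefore repeated without those libraries. That leaves 1Rb_M with 1 library, which is assumed to vary like the other groups, so p-values from that fit carry no spread of 1Rb_M itself. At the start windows the inputs pooled over 3 libraries held 1807 to 2300 counts. Each input lay between -0.04 and 0.05 of the pool there on the log2 scale.

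Levels are log2 ratios over the pooled input DNA, set to 0 at the mean of the 13 autosomes that take no part in the translocations. At the start windows γH2AX lay on both sides of that mean, in 3Rb from -0.58 at Msh5 to 0.58 at Mei4. The median of the 8 start windows was 0.03 in 1Rb_M, -0.07 in 1Rb_P, -0.03 in 3Rb and 0.03 in the B6 library. Over all 22 windows, of which Mei4 supplies 8, the median was 0.11, 0.10, 0.13 and 0.11, with 18, 13, 14 and 17 windows above 0. H3.3 was above it at 7 of the 8 genes in 1Rb, Cg and 3Rb alike, and Mei4 was the exception. In the 3 H3.3 groups Mlh3 had the highest mean, followed by Msh5, Dmc1, Spo11, Msh4, Prdm9, Rec114 and Mei4. The libraries of Msh4 lay all above those of Prdm9 in each H3.3 group, and those of Rec114 all above those of Mei4, while Dmc1 overlapped Msh5 in each. Mei4 and Rec114 lie on chromosome 9 and Msh4 on chromosome 3, which RBF/Dnj, a parent of 3Rb, is known to join to others. Mlh3 lies on chromosome 12, joined in the 1Rb and 3Rb carriers alike. Whether these joins bear on the levels or differences was not tested.

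**Figure D1:**
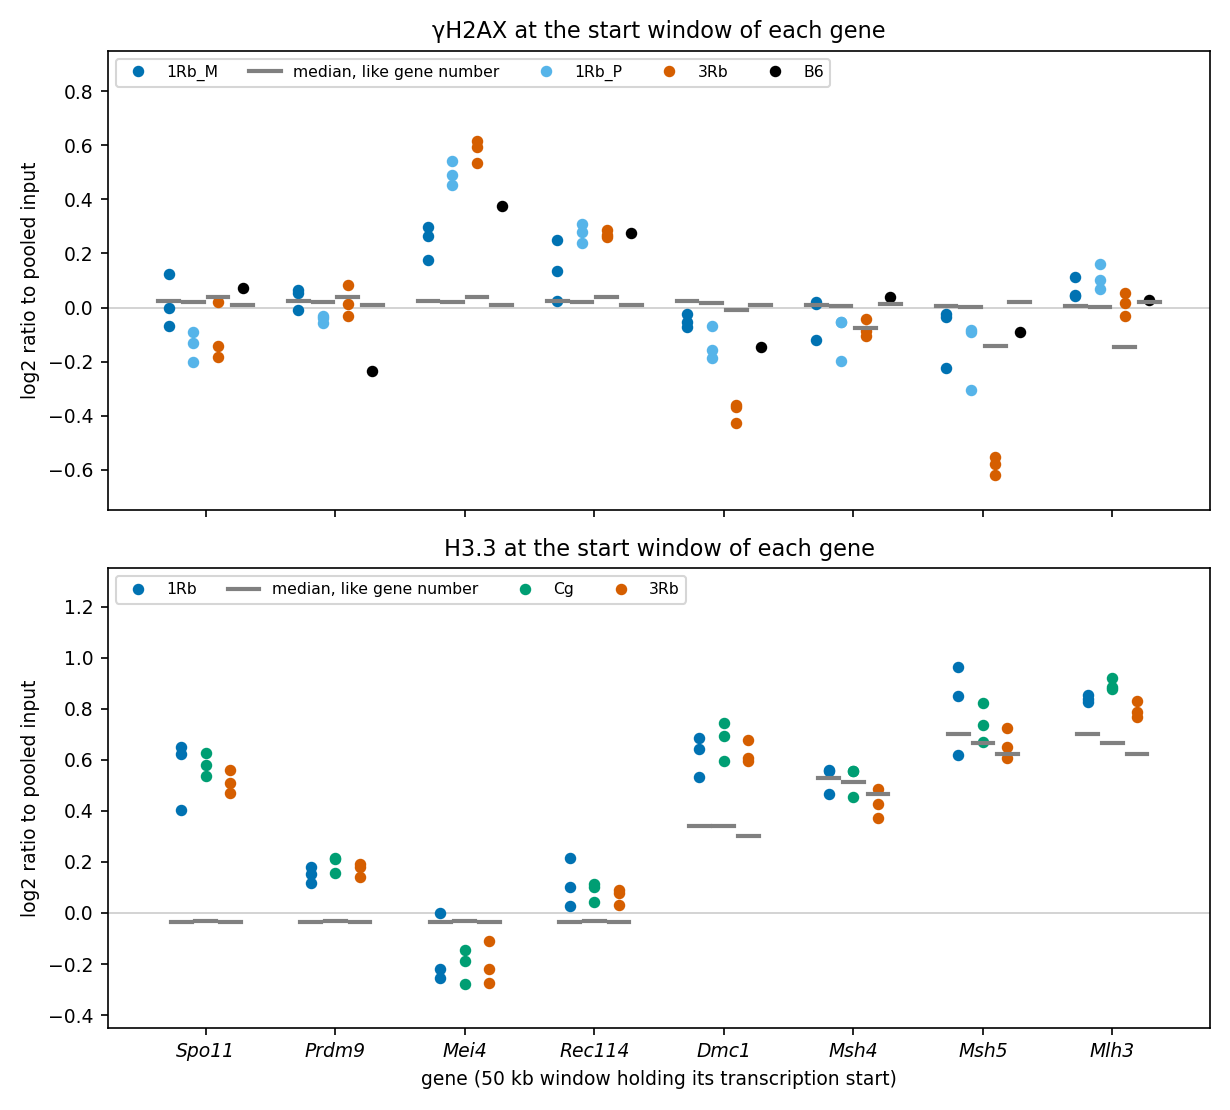
Log2 ratio of γH2AX (upper panel) and H3.3 (lower panel) to pooled input at the start window of each gene, with 1 point per library and a grey bar at the median of autosomal windows with the same number of genes. The 3Rb points of Dmc1 and Msh5 lie below all 1Rb_M and 1Rb_P points, and Mei4 is the highest gene in γH2AX and the lowest in H3.3.

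Among the genes of break formation, Prdm9 encodes the histone methyltransferase that marks where breaks are made. Its start window, chr17:15550001-15600000, overlaps no other protein-coding gene. γH2AX there lay between -0.01 and 0.07 in 1Rb_M, between -0.06 and -0.03 in 1Rb_P and between -0.03 and 0.08 in 3Rb, and the single B6 library stood at -0.23. The 3Rb and 1Rb_M ranges overlapped, and 3Rb differed from 1Rb_M by -0.03 ± 0.058 (SE) and from 1Rb_P by 0.06 ± 0.059. In whole testis a change in the share of cell types and a change within cells cannot be told apart, here and in every comparison. Neither edgeR quasi-likelihood test passed (adjusted p = 0.68 and 0.54, Benjamini-Hochberg over all windows). The other Prdm9 window, shared with Pdcd2 and Tbp, held more H3.3 than the start window in each group, at 0.76 in 1Rb, 0.78 in Cg and 0.66 in 3Rb against 0.15, 0.19 and 0.17.

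Spo11 encodes the enzyme that cuts the DNA. In its only window, chr2:172950001-173000000, γH2AX was between -0.07 and 0.12 in 1Rb_M, between -0.20 and -0.09 in 1Rb_P and between -0.18 and 0.02 in 3Rb, with 0.07 in B6. The 3Rb range overlapped both others, and the difference from 1Rb_M was -0.14 ± 0.061 (SE), which edgeR did not call (adjusted p = 0.070). That call was not stable. It passed with library totals (-0.24, adjusted p = 0.0098), without 1Rb_M replicate 2 (-0.17, adjusted p = 0.014), without 1Rb_P replicate 3 (-0.15, adjusted p = 0.049) and without 3Rb replicate 2 (-0.20, adjusted p = 0.026), all by edgeR. Against the 1 library left without 1Rb_M replicates 1 and 2 the difference was -0.21 (adjusted p = 0.0092). Between 1Rb_P and 1Rb_M Spo11 differed by -0.17 ± 0.062 (adjusted p = 0.14), which was called without 1Rb_M replicate 2 (-0.21, adjusted p = 0.017), and was -0.24 (adjusted p = 0.0098) against the 1 library left without 1Rb_M replicates 1 and 2. The difference between 3Rb and 1Rb_M at Spo11 was smaller than at most windows around it. Of the 20 windows within 500 kb, 19 were called lower in 3Rb than in 1Rb_M, with a median of -0.33, and in 3Rb only 1 of the 20 had a higher γH2AX level than Spo11. H3.3 at Spo11 was 0.56 ± 0.14 in 1Rb, 0.58 ± 0.044 in Cg and 0.51 ± 0.045 in 3Rb (SD, n = 3), and 1 of the 20 neighbours was higher in each group.

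Mei4 encodes a cofactor that SPO11 needs on the chromosome axis. Its 8 windows, chr9:81850001-82250000, overlap no other protein-coding gene, and its start window had the highest γH2AX of the 8 start windows in each group. At the start window γH2AX was 0.18, 0.30 and 0.27 in 1Rb_M replicates 1 to 3, 0.45, 0.49 and 0.54 in 1Rb_P, 0.59, 0.62 and 0.53 in 3Rb, and 0.38 in B6. Every 1Rb_M library lay below every 1Rb_P and 3Rb library, and B6 stood between 1Rb_M and the others. Over all 8 windows the mean level in 3Rb ran from 0.25 to 0.68, and in 1Rb_M from 0.14 to 0.38. The window that Rec114 shares with Nptn, at 0.39 in 3Rb and 0.18 in 1Rb_M, lay within those ranges.

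Of the 8 Mei4 windows, 6 were called higher in 3Rb than in 1Rb_M by edgeR, against 17.9% of all windows called higher in that comparison. The start window rose by 0.31 ± 0.062 (SE), a 1.24-fold difference, at adjusted p = 0.00019, with 19.5 ± 0.51 CPM (counts scaled to library size) in 3Rb and 15.7 ± 0.68 in 1Rb_M (SD, n = 3). The rise was part of a run of 6 called windows, chr9:81800001-82100000. This run begins before Mei4 and does not reach its called window chr9:82150001-82200000. It was not limited to Mei4. Of the 20 windows within 500 kb of the start window, the rest of Mei4 among them, 13 were called higher. Their median difference was 0.16 and the lowest 0.07. None of the 8 Mei4 windows was called between 3Rb and 1Rb_P, in which 22.9% of all windows were called. The start window differed there by 0.08 ± 0.062 (edgeR adjusted p = 0.40). Between 1Rb_P and 1Rb_M, 2 of the 8 were called higher, chr9:81950001-82000000 at 0.27 ± 0.066 (adjusted p = 0.032) and chr9:82000001-82050000 at 0.23 ± 0.061 (adjusted p = 0.046), where 1.06% of all windows were called higher. Both calls were lost with DESeq2, with library totals, in the replicate block and without any 1 of 1Rb_M replicate 1, 1Rb_P replicates 1, 2 and 3, or 3Rb replicates 1 and 3. The start window differed by 0.23 ± 0.063 there (adjusted p = 0.053) and was called without 1Rb_M replicate 2 (0.27, adjusted p = 0.0041), without 1Rb_M replicate 3 (0.23, adjusted p = 0.0030) and with TMM from windows with a gene (0.24, adjusted p = 0.045), and was 0.25 (adjusted p = 0.0093) against the 1 library left without 1Rb_M replicates 1 and 2. The 3Rb against 1Rb_M calls at the start window and at these 2 windows held in all 15 alternative fits, whereas with library totals the other 3 called Mei4 windows lost theirs. The window chr9:81900001-81950000 also lost its call without 3Rb replicate 1 or 3Rb replicate 2. The window chr9:82150001-82200000 lost its call with DESeq2 and without 1Rb_M replicate 1 or 3, 1Rb_P replicate 1 or 3, or 3Rb replicate 2 or 3.

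H3.3 over Mei4 was the lowest of the 8 genes. At the start window it was -0.16 ± 0.14 in 1Rb, -0.21 ± 0.068 in Cg and -0.20 ± 0.085 in 3Rb (SD, n = 3), and the other 7 windows lay between -0.61 and -0.30. The start window was nevertheless above all 20 windows within 500 kb in each group, whose medians were -0.47, -0.45 and -0.39. The same held for the start windows of Msh4 and Mlh3 among their own neighbours. No H3.3 difference was called at any Mei4 window.

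Rec114 encodes the partner of MEI4. Its 4 windows, chr9:58650001-58850000, did not move together. The gene lies on the minus strand, and its RefSeq span reaches chr9:58822706, beyond the transcription start used here (chr9:58741559). The windows from chr9:58750001 on, including that shared with Hcn4, thus lie upstream of that start. In the start window, chr9:58700001-58750000, γH2AX was 0.02, 0.14 and 0.25 in 1Rb_M, 0.28, 0.31 and 0.24 in 1Rb_P, 0.26, 0.29 and 0.27 in 3Rb, and 0.28 in B6. The 1Rb_M libraries were spread more widely than the others, and 3Rb minus 1Rb_M was 0.12 ± 0.061 (SE; edgeR adjusted p = 0.14), called among the 15 alternatives only without 1Rb_M replicate 3 (0.15, adjusted p = 0.026). The window shared with Nptn was called higher than 1Rb_M in 3Rb (0.19 ± 0.070, adjusted p = 0.035) but lost that call in 12 of 15 alternatives, among them each omission of 1 library other than 1Rb_M replicate 3. Between 1Rb_P and 1Rb_M the start window was called only without 1Rb_M replicate 3 (0.16, adjusted p = 0.034). The window shared with Hcn4 was called lower in 3Rb than in 1Rb_M by edgeR (-0.18 ± 0.060, adjusted p = 0.015). It lost that call with DESeq2, without 3Rb replicate 1 and without 3Rb replicate 3.

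Dmc1 encodes the meiotic recombinase that invades the homologue with the broken end. Its start window, chr15:79600001-79650000, is shared with Fam227a. γH2AX there was -0.07, -0.05 and -0.02 in 1Rb_M, -0.19, -0.07 and -0.16 in 1Rb_P, and -0.43, -0.36 and -0.37 in 3Rb, with -0.14 in B6. All 3Rb libraries lay below all others. The window fell by 0.35 on the log2 scale from 1Rb_M to 3Rb (SE 0.057, 0.782-fold, edgeR adjusted p = 1.32e-05) and by 0.25 from 1Rb_P to 3Rb (SE 0.058, 0.839-fold, adjusted p = 0.0016), with 11.9 ± 0.28 CPM in 3Rb, 15.3 ± 0.12 in 1Rb_M and 14.2 ± 0.63 in 1Rb_P (SD, n = 3). Both calls held in all 15 alternatives.

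The fall was not limited to Dmc1. All 20 windows within 500 kb were called lower against 1Rb_M (median -0.36) and 17 of 20 against 1Rb_P (median -0.31), and the run of lower windows against 1Rb_M spanned 60 windows, chr15:77550001-80550000. Against 1Rb_P the windows on either side of the Dmc1 start window were not called, so the run there was that 1 window. The other Dmc1 window was called lower against 1Rb_M only narrowly (-0.16 ± 0.065, adjusted p = 0.046) and lost that call in 9 of 15 alternatives, among them the omission of 1Rb_M replicate 1 or 2 and of any 3Rb replicate. H3.3 at the Dmc1 start window was 0.62 ± 0.078 in 1Rb, 0.68 ± 0.076 in Cg and 0.63 ± 0.045 in 3Rb (SD, n = 3). It differed by -0.05 ± 0.058 (SE) in 1Rb and -0.05 ± 0.057 in 3Rb from Cg, and by -0.00049 ± 0.058 between 3Rb and 1Rb, and none was called.

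**Figure D2:**
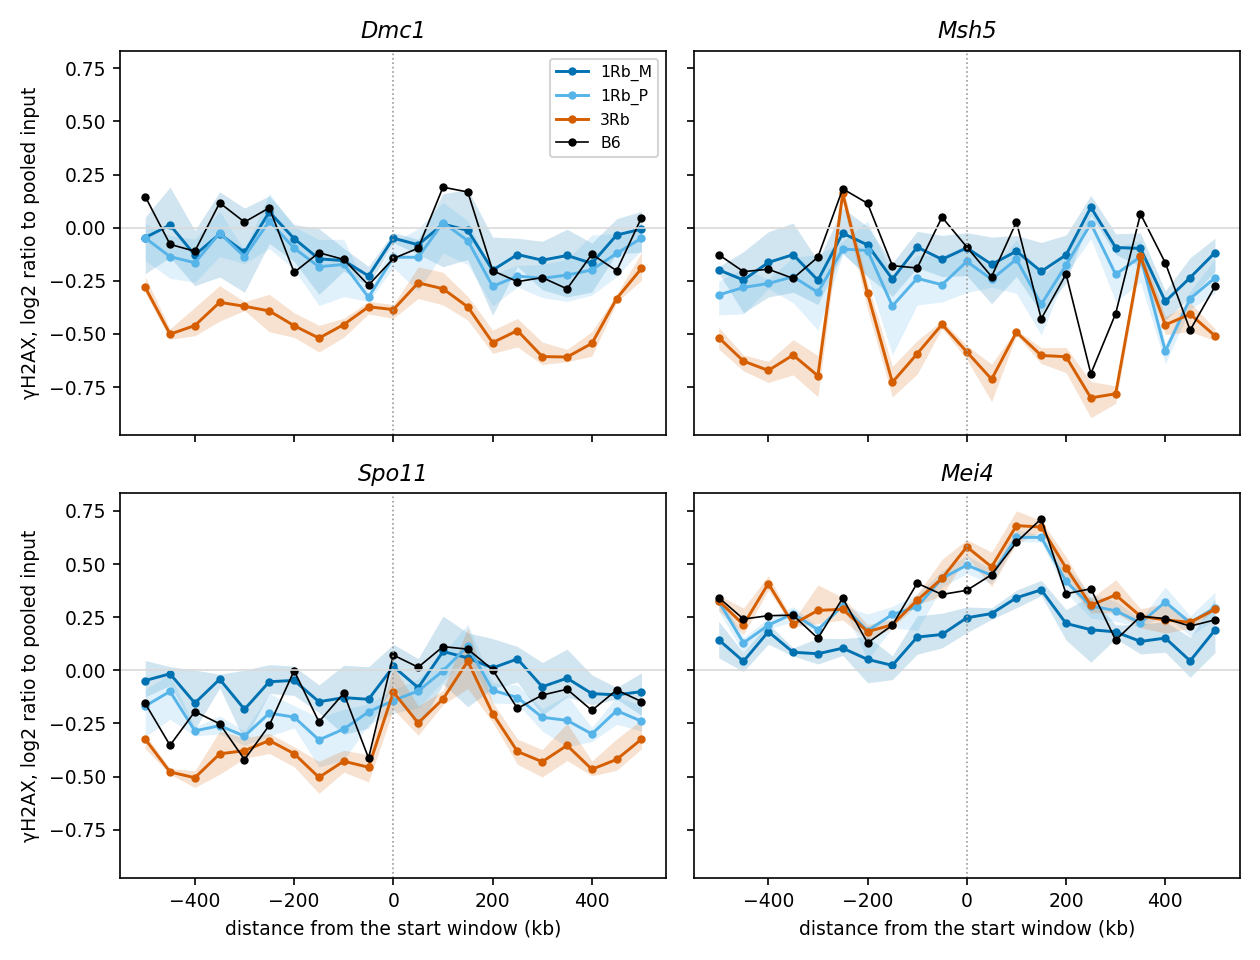
γH2AX (log2 ratio to pooled input, vertical axis) in 50 kb windows within 500 kb of the start windows of Dmc1, Msh5, Spo11 and Mei4, as the group mean with the range of its 3 libraries shaded (B6 is 1 library). The 3Rb line runs below both 1Rb lines across the Dmc1 surroundings and over most of those of Msh5, where it lies above both at -250 kb, while at Spo11 it comes up toward them in the start window.

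Among the crossover genes, Msh4 and Msh5 encode a heterodimer that stabilises recombination intermediates. Msh5 showed the largest fall of the 8 genes in both comparisons with 3Rb. Its window, chr17:35000001-35050000, also overlaps D17H6S56E-5, Sapcd1, Vars and Vwa7. γH2AX was -0.02, -0.23 and -0.04 in 1Rb_M, -0.08, -0.09 and -0.30 in 1Rb_P, and -0.62, -0.58 and -0.55 in 3Rb, with -0.09 in B6. Each 3Rb library lay below every other library. The window fell by 0.51 on the log2 scale from 1Rb_M to 3Rb (SE 0.065, 0.703-fold, edgeR adjusted p = 3.62e-07) and by 0.43 from 1Rb_P to 3Rb (SE 0.066, 0.741-fold, adjusted p = 8.41e-06), with 11.1 ± 0.25 CPM in 3Rb against 15.8 ± 1.1 and 14.97 ± 1.2 (SD, n = 3). Both calls held in all 15 alternatives.

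As at Dmc1, the neighbours of Msh5 fell too. Of the 20 windows within 500 kb, 17 were called lower and 1 higher against 1Rb_M (median -0.41), and 16 lower and 1 higher against 1Rb_P (median -0.35). In both comparisons Msh5 lay in the same run of 11 lower windows, chr17:34800001-35350000. H3.3 varied among the 20 neighbours too. Between 3Rb and 1Rb it differed by -0.39 to 0.39, with 2 windows called higher and 3 lower, whereas around Dmc1 no H3.3 difference was called in that comparison. H3.3 at Msh5 was 0.81 ± 0.18 in 1Rb, 0.74 ± 0.077 in Cg and 0.66 ± 0.059 in 3Rb (SD, n = 3). The difference between 3Rb and 1Rb, -0.16 ± 0.066 (SE), was not called (edgeR adjusted p = 0.19), but it was without 1Rb replicate 1 (-0.25, adjusted p = 0.0034) and without Cg replicate 1 (-0.17, adjusted p = 0.047).

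Msh4 did not follow Msh5. At its start window, chr3:153900001-153950000, shared with Acadm and Rabggtb, γH2AX was -0.03 ± 0.079 in 1Rb_M, -0.10 ± 0.084 in 1Rb_P and -0.08 ± 0.034 in 3Rb (SD, n = 3), with overlapping libraries and no call, although library totals gave one against 1Rb_M (-0.17, adjusted p = 0.045). The other Msh4 window, chr3:153850001-153900000, shared with Asb17, was higher in 3Rb. Its γH2AX was -0.04, -0.14 and -0.07 in 1Rb_P, 0.03, 0.09 and 0.17 in 1Rb_M, and 0.28, 0.20 and 0.25 in 3Rb. The difference from 1Rb_P was 0.32 ± 0.055 (SE; edgeR adjusted p = 5.10e-05) and held in all 15 alternatives, while that from 1Rb_M was 0.13 ± 0.053 (adjusted p = 0.059). Of the 20 windows around the Msh4 start window this was the 1 called higher against 1Rb_P.

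Mlh3 encodes a subunit of the endonuclease that turns intermediates into crossovers. Its start window, chr12:85250001-85300000, shared with Acyp1, Nek9 and Zc2hc1c, had a γH2AX level of 0.07 ± 0.041 in 1Rb_M, 0.11 ± 0.047 in 1Rb_P and 0.01 ± 0.041 in 3Rb (SD, n = 3), with no call except against 1Rb_M with library totals (-0.17, edgeR adjusted p = 0.031). The neighbouring window, which holds the rest of Mlh3 and Eif2b2, was called lower in 3Rb against both 1Rb_M (-0.20 ± 0.061, adjusted p = 0.011) and 1Rb_P (-0.20 ± 0.062, adjusted p = 0.020) by edgeR. The first call was lost with DESeq2 and without 3Rb replicate 1, and the second with DESeq2, without 1Rb_P replicate 2 and without 3Rb replicate 1. Mlh3 had the highest H3.3 of the 8 start windows, at 0.84 ± 0.014 in 1Rb, 0.89 ± 0.024 in Cg and 0.80 ± 0.032 in 3Rb (SD, n = 3).

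Between 3Rb and 1Rb_M, 7 of the 22 windows were called higher and 5 lower by edgeR, against 38.1% of 53118 windows called in either direction, 17.9% higher and 20.2% lower. Of the 7 higher windows 6 are neighbours within Mei4. Over the start windows alone 1 of 8 was called higher (Mei4) and 2 lower (Dmc1 and Msh5), a share close to that of all windows. With library totals as the scaling the split was 3 higher and 9 lower, and over all windows 4492 higher and 16177 lower in place of 9507 and 10710. The median difference was 0.03 over the 22 windows and 0.01 over all windows. Leaving out 3Rb replicate 2 gave 4 higher, leaving out 3Rb replicate 1 gave 2 lower and leaving out 3Rb replicate 3 gave 3 lower.

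Between 3Rb and 1Rb_P, 1 of the 22 was called higher (Msh4) and 3 lower (Dmc1, Msh5 and Mlh3), against 22.9% of all windows called, 10.1% higher and 12.8% lower. The median was 0.03 over the 22 windows and 0.00 over all. Between 1Rb_P and 1Rb_M, 2 were called higher, both in Mei4, and 0 lower, against 1.36% of all windows (1.06% higher and 0.299% lower). In the alternatives in which both Mei4 calls were lost, the replicate block among them, the count was 0. It was 1 without 3Rb replicate 2, 5 without 1Rb_M replicate 2, 7 without 1Rb_M replicate 3 and 4 against the 1 library left without 1Rb_M replicates 1 and 2. The 3 comparisons share their groups and are not independent.

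**Figure D3:**
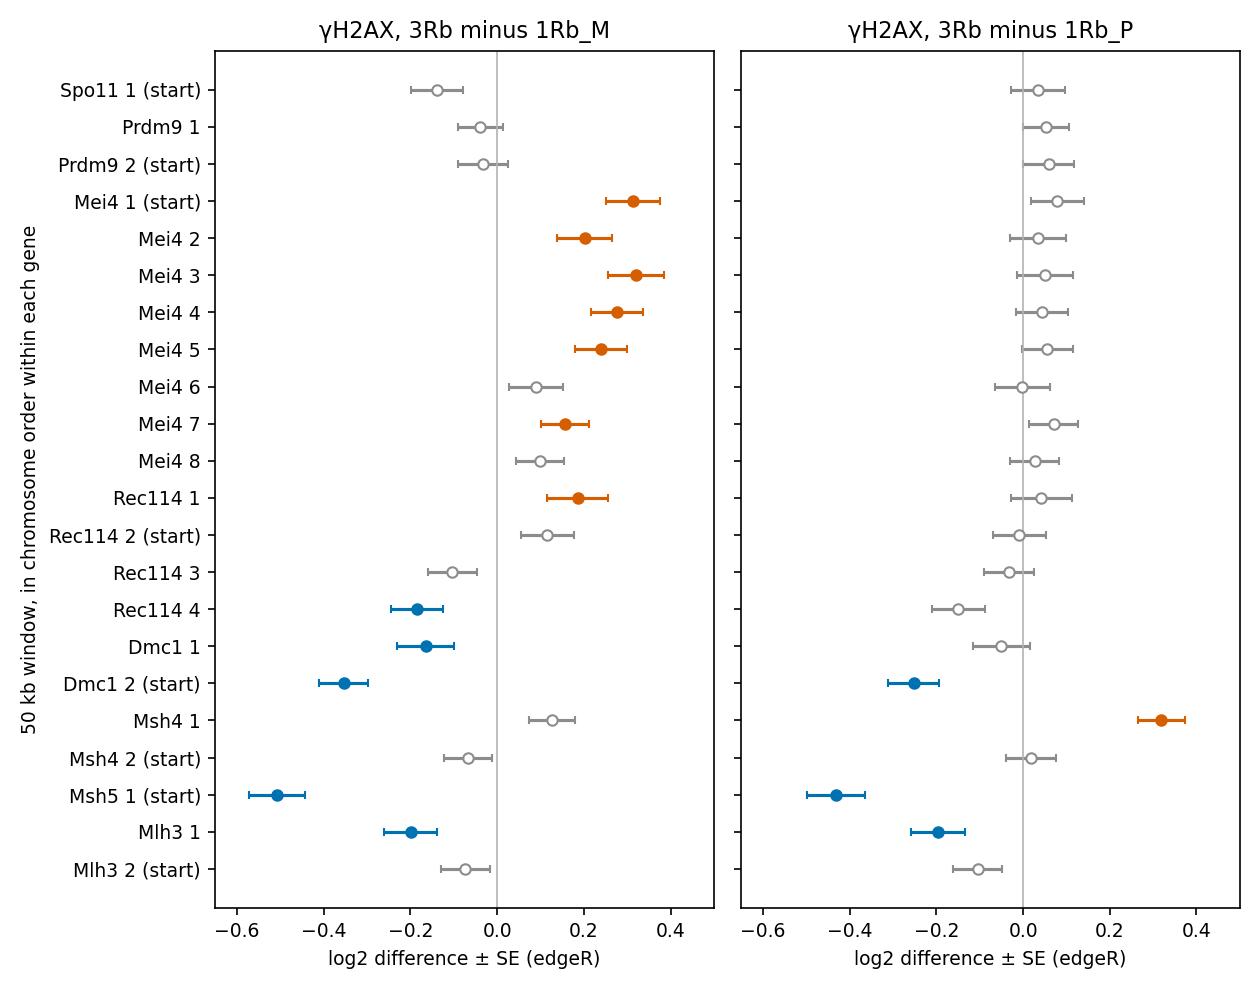
Log2 difference in γH2AX with its standard error at each of the 22 windows, numbered along the chromosome within each gene, for 3Rb minus 1Rb_M (left) and 3Rb minus 1Rb_P (right). Filled points passed the edgeR test (orange higher, blue lower) and open points did not. Msh5 and the Dmc1 start window are blue in both panels. Most Mei4 windows, but not all, are orange on the left, and none is on the right.

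H3.3 was not called at any of the 22 windows in any comparison. edgeR called 0 of 22 between 1Rb and Cg, 0 between 3Rb and Cg and 0 between 3Rb and 1Rb, against 3.71%, 9.51% and 6.1% of all windows. The shares were lower in autosomal windows with 1 gene, of which 389, 900 and 511 of 19838 were called. Without adjustment, 0, 4 and 1 of the 22 had p under 0.05, and DESeq2 also called 0 in each. The 4 windows between 3Rb and Cg were 3 of Mei4 (0.11, 0.12 and 0.13) and the first of Prdm9 (-0.11), and the 1 between 3Rb and 1Rb was Msh5. The standard errors of H3.3 at the 22 windows ran from 0.0468 to 0.0756.

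In 3Rb the median H3.3 level of autosomal windows was -0.04 with 1 gene, 0.30 with 2, 0.47 with 3 and 0.62 with 4 to 5, and the median γH2AX level 0.04, -0.01, -0.08 and -0.14. In 3Rb, windows with more genes thus held more H3.3 and less γH2AX. The γH2AX medians of these 4 classes differed less in the other groups, from 0.02 to 0.00 in 1Rb_M and in 1Rb_P and, rising, from 0.01 to 0.02 in B6. Each start window was placed among autosomal windows with the same number of protein-coding genes. The median start window stood at the 51.1st percentile of its class in γH2AX of 1Rb_M, the 32.9th in 1Rb_P, the 48.7th in 3Rb and the 54.1st in B6. For H3.3 it stood at the 67.2nd in 1Rb, the 65.5th in Cg and the 65.3rd in 3Rb, with 6, 7 and 6 of the 8 genes above the middle of their class. Over all 22 windows, of which 8 are neighbouring windows of Mei4, high in γH2AX and low in H3.3, the order of the marks was the other way round. γH2AX stood there at a median percentile of 72.1, 70.5, 76.5 and 66.99 and H3.3 at 51.0, 53.5 and 50.9. The genes were spread widely around these medians.

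Mei4 was near the top of its class in γH2AX, at the 90.9th percentile in 1Rb_M, the 96.5th in 1Rb_P, the 95.1st in 3Rb and the 92.6th in B6. Msh5 stood at percentile 21.7 in 1Rb_M, 18.01 in 1Rb_P and 29.2 in B6, and at 3.19 in 3Rb, below nearly all of the 816 windows with 4 to 5 genes. In that class 53.4% of windows were called lower in 3Rb than in 1Rb_M and 45.3% lower than in 1Rb_P, so a fall was common among windows as gene-rich as that of Msh5, and its size placed it low. Dmc1 went from the 30.3rd (1Rb_M) and 20.8th (1Rb_P) to the 8.83rd percentile in 3Rb, in the class with 2 genes, where 30.3% and 20.9% were called lower.

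In H3.3 Spo11 stood highest in its class, at the 93.3rd, 93.6th and 93.3rd percentile of 1Rb, Cg and 3Rb among windows with 1 gene. Dmc1 followed, at the 81.0th, 86.3rd and 86.5th. Msh4 was close to the middle of its class, at the 49.9th, 50.9th and 45.7th, and Mei4 was below it, at the 39.3rd, 34.8th and 33.9th. Prdm9 lay between the 66.7th and the 70.3rd. The crossover genes Msh5 and Mlh3, both in the class of 4 to 5 genes, stood at the 56.1st and the 78.8th in 3Rb.

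**Figure D4:**
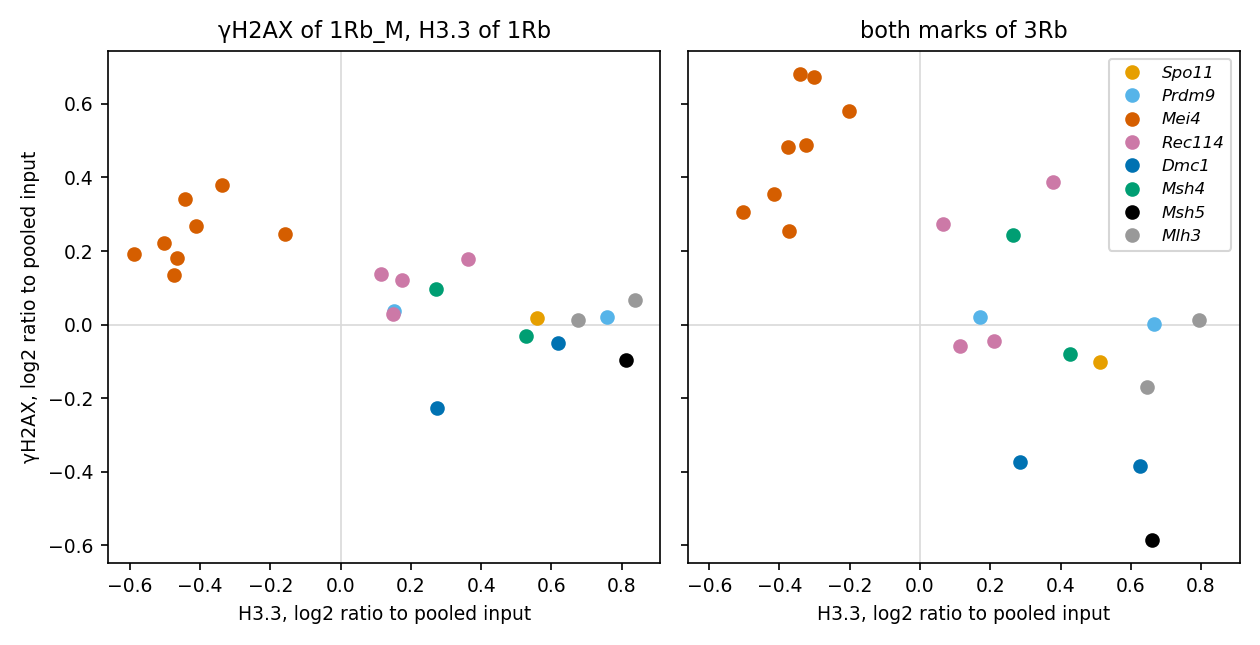
γH2AX against H3.3 at the 22 windows (log2 ratio to pooled input on both axes, group means, 1 colour per gene), for γH2AX of 1Rb_M with H3.3 of 1Rb (left) and for both marks of 3Rb (right). The 8 Mei4 windows sit at high γH2AX and low H3.3, and Msh5 and Dmc1 at the lower right in 3Rb.

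Across the 8 start windows of 3Rb the genes with more H3.3 had less γH2AX (Pearson r = -0.81, Spearman rho = -0.76, n = 8), and over the 22 windows r was -0.76. Over 27927 autosomal windows with a gene r was -0.0053. These are descriptions. The marks were read at different ages, both ratios share the pooled input, and 8 of the 22 points are windows of Mei4. The start windows also differ in gene number, from 1 at Mei4 to 5 at Msh5, which these correlations do not account for. In 1Rb the same values were -0.79 over the start windows (γH2AX of 1Rb_M), -0.72 over the 22 and 0.21 over the autosomal windows.

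A list of 29 other recombination genes set the 8 in their pathway. A start window was found for 24 of them, 5 acting in break formation, 11 in strand exchange and 8 in crossing over. In γH2AX 3 of the 24 were called higher and 7 lower in 3Rb than in 1Rb_M, against 17.9% and 20.2% of all windows. Against 1Rb_P 2 were called higher and 6 lower, where the shares of all windows were 10.1% and 12.8%. Of 27927 autosomal windows with a gene, 4285 were called higher and 7407 lower against 1Rb_M, and 2799 and 4639 against 1Rb_P. The share called lower rose with gene number, from 22.9% with 1 gene to 67.3% with 6 or more against 1Rb_M. Against 1Rb_P it rose from 12.6% to 59.1%. Mcmdc2, a strand exchange factor on chromosome 1, rose by 0.80 ± 0.077 (SE, edgeR adjusted p = 1.72e-09) and 0.78 ± 0.077 (adjusted p = 2.51e-09). Chromosome 1 is among those that RBF/Dnj, a parent of 3Rb, is known to join. Whether this bears on the rise was not tested. Rnf212, a crossover factor, rose by 0.23 ± 0.058 (adjusted p = 0.0025) and 0.27 ± 0.059 (adjusted p = 0.00089). Psmc3ip, a cofactor of DMC1, fell by 0.40 and 0.32, and Prr19, a crossover factor, fell by 0.39 and 0.38. No start window of this list was called between 1Rb_P and 1Rb_M or in the 3 H3.3 comparisons by edgeR, where 1, 0, 3 and 1 of the 24 had an unadjusted p under 0.05.

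The gene whose levels over the 7 immunoprecipitated groups, relative to windows of like gene number, ran most like those of each member was found among 18579 autosomal genes. It was Thoc3 for Spo11 (Pearson r = 0.998, n = 7 groups), Aldoa for Prdm9 (0.996), Ccdc148 for Mei4 (0.998), Mab21l3 for Dmc1 (0.999) and 1190005I06Rik for Msh5 (0.997). It was 2810021J22Rik for Rec114 (0.970), Gm3752 for Msh4 (0.967) and Arl6ip6 for Mlh3 (0.978). With 7 groups of 2 marks such values were common for some members and rare for others. An r over 0.95 was reached by 2468 genes for Dmc1 and 2365 for Spo11, but by 14 for Rec114 and 2 for Msh4.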

How the data were processed

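The 22 ChIP-seq libraries of testis comprised 19 immunoprecipitations and 3 inputs. The deposited values are whole-number read counts per 50 kb window; base calling with CASAVA 1.8, alignment with BWA and build mm10 are named in the submitters' processing notes, and read filters are not given in the sources used here. Gene positions came from RefSeq (GRCm38). The members and gene lists were chosen with earlier results of these data known.

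Levels are log2((count + 0.5)/(pooled input + 0.5)), set against the mean of 13 autosomes in no translocation. RBF/Dnj is known to join chromosomes 1 with 3, 8 with 12 and 9 with 14. Percentiles are among autosomal windows of the same gene number, without windows whose input was under 0.2 or over 5 times the median. Groups were compared with edgeR 4.0.16 (quasi-likelihood, TMM, 9 libraries per mark, mean count per window of 10 or more, Benjamini-Hochberg over all windows, call at adjusted p under 0.05). A window is called higher or lower only by that test. Alternatives were DESeq2 1.42.0, library totals, TMM from windows with a gene, no count filter, a replicate block and leaving out each library; leaving out 1Rb_M replicates 1 and 2 was added after seeing the data. All 8 members are named; of other recombination genes, up to 2 per direction and comparison by adjusted p. A median window held 203 to 2030 counts per library, a counting error of 7.02% to 2.22%, which covers counting alone. No input of 3Rb was used here, so its own copy number was not read.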

Additional observations from a re-analysis of the deposited data

How the results depend on the processing

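Between 3Rb and 1Rb_M the count of the 22 windows called higher was 7, and 3 with library totals; the count called lower was 5, and 2 with DESeq2 and 9 with library totals. Leaving out 1 library gave 4 to 8 higher and 2 to 6 lower. Library totals moved the median of all windows from 0.01 to -0.09 in that comparison. Between 1Rb_P and 1Rb_M the 2 higher calls became 0 with DESeq2, library totals or the replicate block, 4 without 1Rb_M replicates 1 and 2, and 0 to 7 without 1 library; the 0 lower calls became 1, with library totals, 2 without 1Rb_M replicates 1 and 2, and 0 to 2 without 1 library. In H3.3 between 3Rb and 1Rb, leaving out 1 library gave 0 to 1 lower. The cause was not tested.

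Some small differences at start windows that were not called changed sign. γH2AX at Prdm9 (3Rb minus 1Rb_M) became 0.0498 without 1Rb_M replicates 1 and 2, at Rec114 (3Rb minus 1Rb_P) 0.0110 with TMM from windows with a gene, and at Mlh3 (1Rb_P minus 1Rb_M) -0.0541 with library totals. H3.3 at Rec114 (3Rb minus Cg) became 0.0092 with TMM from windows with a gene and 0.0014 with library totals. H3.3 at Dmc1 (3Rb minus 1Rb) became 0.0173 and 0.0063 with these settings and 7.00e-05 in the replicate block. Without 1 library, γH2AX ran from -0.0248 to 0.0713 at Spo11 and -0.0333 to 0.0367 at Msh4 (3Rb minus 1Rb_P), and -0.0057 to 0.0629 at Mlh3 (1Rb_P minus 1Rb_M). H3.3 of 1Rb minus Cg ran from -0.0614 to 0.0623 at Spo11, -0.0106 to 0.118 at Mei4, -0.0042 to 0.0859 at Rec114 and -0.0185 to 0.0423 at Msh4; 3Rb minus Cg from -0.0289 to 0.0595 at Mei4 and -0.0395 to 0.0071 at Rec114; and 3Rb minus 1Rb from -0.0132 to 0.0276 at Prdm9, -0.105 to 0.0348 at Mei4 and -0.0429 to 0.0272 at Dmc1.

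The median level of the 8 start windows became 0.0477 in 1Rb_M and -0.0436 in 1Rb_P with the input nearest by label. With all chromosomes as reference it became -0.25 in 1Rb_M, -0.44 in 1Rb_P, -0.42 in 3Rb and -0.42 in B6, since X and Y then enter the reference. Among windows of the same chromosome the median γH2AX percentile was 37.7 in 1Rb_P, 41.6 in 3Rb and 50.5 in B6, and the H3.3 percentile 59.8 in 1Rb, 57.9 in Cg and 57.9 in 3Rb. With gene number counted over 150 kb it was 58.2 in B6, and for H3.3 58.8 in 1Rb and 56.6 in 3Rb. Without 1 library the H3.3 percentile of 1Rb ran from 64.1 to 67.5.

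Deviations of each library from its group mean were correlated between groups of a mark. For same-numbered libraries r ran from -0.33 to 0.33 in γH2AX and from -0.57 to 0.14 in H3.3. For differently numbered libraries it ran from -0.46 to 0.44 and from -0.29 to 0.43. With 3 libraries per group the deviations depend on each other, so these values cannot settle whether the numbers pair libraries. The replicate block moved no other count of called members by over 1.5 times.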
